A study of Carassius gibelio with 26 samples.

Results

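Chromosome 22 of the reference carries 1191 of the 62131 genes of the count table, and 586 of them had a mean of at least 1 CPM (counts per 1000000 counts of the library) over the 26 libraries. These 586 genes are the members described here, and the 605 genes of the chromosome under that level are described apart, 20 of them with 0 counts in every library. Members were selected on their mean CPM and on the first chromosome entry of their row. The chromosome itself was chosen by earlier values of these data, the levels of its genes in 2 triploid males of group 2 and in the comparison of groups 2 and 3. Those values are therefore a description with no test, and they support nothing. The 3 members just inside the threshold had mean CPM of 1.01, 1.01 and 1.02, and the 3 genes just outside it had 0.989, 0.998 and 0.999.

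Gibel carp (Carassius gibelio) is a freshwater fish of the goldfish group whose ancestors doubled their genome, so that most chromosomes have a duplicate partner with related genes. The species holds diploids, which reproduce by mating, and triploid lines in which a female's egg develops with her own chromosomes after sperm has only triggered development (gynogenesis). How much RNA a chromosome gives depends in general on how many copies of it a cell carries and on how each of its genes is controlled. Copy number was not measured in these males. The partner of chromosome 22 by number is chromosome 47, of which 340 genes out of 580 met the same threshold, and it serves as background only.

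Testes of males aged 2 years were sequenced, 1 library per male. The diploid males (2n, n = 10) were bred from diploid parents and kept at 22 °C. The triploid males were males among gynogenetic offspring, and the design text describes the mother of each group by its offspring. Group 1 (n = 5, 28 to 31 °C) came from a mother with no sex reversal at 22 °C. Group 2 (n = 5, 28 to 31 °C) and group 3 (n = 6, 22 °C) came from a mother with much sex reversal at 22 °C. Gynogenetic brothers share nearly all of their mother's genome, and p-values then cover the spread among relatives. Library names carry a second number, which is 14, 106 or 108 for 2n males, 4 to 6 for group 1, always 11 for group 2 and 11 or 12 for group 3. The sources do not say what it stands for, and the count of mothers is uncertain. The names of warm-reared males carry a further number, 31 in replicates 1 to 3 of group 1 and in all 5 males of group 2 and 28 in replicates 4 and 5 of group 1, whose meaning is not stated either and which equals an end of the labelled temperature range. Groups 1 and 2 differ from the 2n males in ploidy, line and temperature, and group 3 differs from them in ploidy and line. Group 1 differs from group 3 in mother and temperature. It differs from group 2 in mother and, in replicates 4 and 5, in the further number of the name. Within each of these comparisons the factors cannot be told apart. The label of testis could not be checked against marker genes, because the files give gene IDs with no names and 0 of the 62131 IDs matched the 98729 gibel carp genes of the table at hand.

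Libraries held 15375923 to 29503544 counts. Replicates 1 and 2 of group 1 stood apart from all other libraries in their scaling (TMM factors of 1.52 and 1.45, against 0.776 to 1.20 in the other 24), and the counts of members called, the named windows and the named genes of the group 1 comparisons are also given without them. The members ran from position 309376 to 34748057 of chromosome 22 in the goldfish assembly ASM336829v1, with 297 genes on the plus strand and 289 on the minus strand. Their median level was 7.21 CPM (quartiles 2.79 and 23.4), and the highest member reached 495 CPM. The median exon length was 2269 bases, and 22 members (3.75%) had a single exon row.

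Members took 1.45 ± 0.0410% of all counts in the 2n males (SD, n = 10), with a range of 1.37% to 1.52%. The 5 males of group 1 gave 1.44%, 1.41%, 1.34%, 1.35% and 1.34% (mean 1.38 ± 0.0465%). In group 2 the shares were 1.34%, 1.73%, 1.29%, 1.34% and 1.74% for replicates 1 to 5 (mean 1.49 ± 0.226%). Group 3 gave 1.31%, 1.34%, 1.37%, 1.31%, 1.38% and 1.43% (mean 1.36 ± 0.0459%). Replicates 2 and 5 of group 2 lay above every other library of the series, and the remaining 3 males of group 2 lay within the range of group 3 or just below it. These shares are without TMM. As sums of CPM scaled by TMM, those 2 males were again highest, at 19871 and 19121. The order of other males differed, with group 1 replicates 1 and 2 lowest at 9500 and 9776. Group 3 then had a median of 15625, above 13764 in the 2n males. In bulk tissue, more RNA per cell and more cells of a type that uses these genes cannot be told apart.

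The gene-by-gene picture had the same form. For each male, the deviation of every member was its log2 CPM less the median log2 CPM of the remaining males of a reference set (2n, group 1, or groups 2 and 3 together), centred on the median deviation of all genes at mean CPM of at least 1. The median deviation was 0.34 in group 2 replicate 2, which is 1.27-fold, with quartiles over members of 0.14 and 0.53. In group 2 replicate 5 it was 0.33, or 1.26-fold, with quartiles of 0.16 and 0.48. The other 24 males had medians between -0.10 and 0.06. Within group 2, replicates 1, 3 and 4 gave -0.02, -0.07 and -0.03. The 6 males of group 3 gave -0.04, -0.04, -0.06, -0.10, -0.05 and 0.02. The reference of these males contains the 2 raised males.

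**Figure D1:**
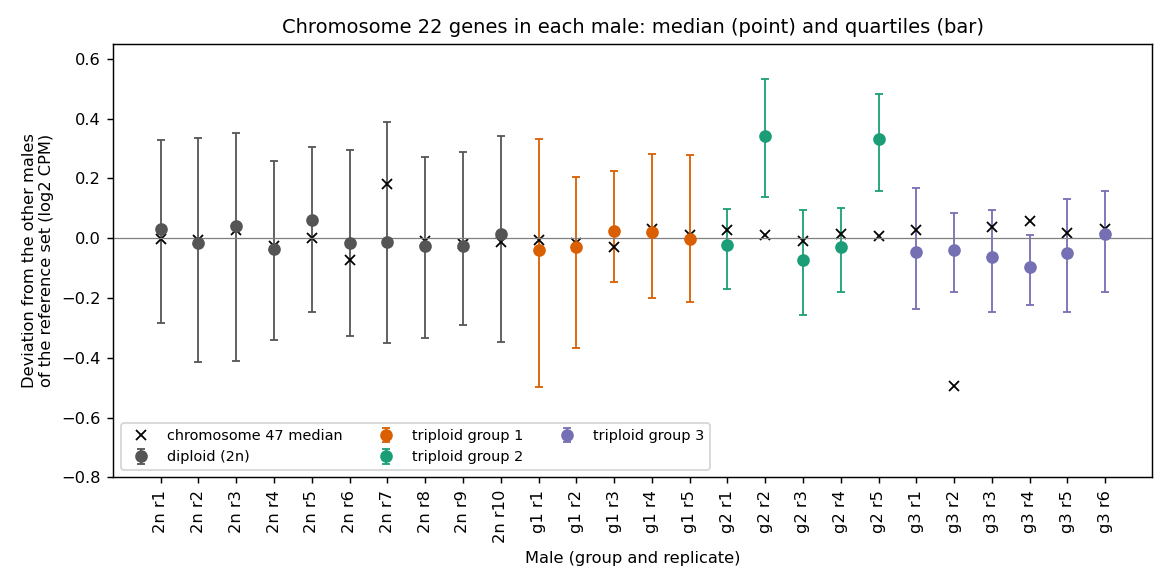
Deviation of the 586 chromosome 22 members in each of 26 males (log2 CPM against the other males of the reference set), with the median as a point, the quartiles over members as a bar and the chromosome 47 median as a cross. Group 2 replicates 2 and 5 sit at 0.34 and 0.33, and every other male lies between -0.10 and 0.06 for chromosome 22.

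In both males chromosome 22 ranked 1 of 50 numbered chromosomes, a rank it also held in 2n replicate 5, at a median of 0.06. The other chromosomes lay between -0.07 and 0.06 in replicate 2 and between -0.03 and 0.03 in replicate 5. The partner chromosome 47 stood at 0.01 in each of them. Chromosome 47 departed from its own group in other males, at -0.49 in group 3 replicate 2 and 0.18 in 2n replicate 7, where chromosome 22 stood at -0.04 and -0.01. Further chromosomes also departed in single males. The lowest stood at -0.63 in group 2 replicate 3, -0.16 in group 2 replicate 4 and -0.14 in group 3 replicate 1. The highest stood at 0.16 in group 3 replicate 6.

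The rise was spread over most members rather than carried by a few. Deviations were above 0 for 490 of 586 members (83.6%) in replicate 2 and for 516 (88.1%) in replicate 5. Both males were above 0 at 444 members (75.8%) and neither at 24, with 46 above 0 in replicate 2 alone and 72 in replicate 5 alone. Replicate 2 had the highest value of the 11 males of groups 2 and 3 at 251 members (42.8%, against 12.3% of all genes at the same threshold), and replicate 5 at 178 members (30.4%, against 6.65%). Between them they held the 2 highest values of the 11 males at 230 members (39.2%, against 3.08% of all genes). The next of the 55 possible pairs of males, group 2 replicate 2 with group 3 replicate 1, held them at 49 members (8.36%, against 5.46% of other genes). These shares describe the choice of the chromosome and test nothing.

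The size of the deviation varied among members. Across the 586 members the deviations of replicates 2 and 5 had a Pearson correlation of 0.33 and a Spearman correlation of 0.32, a description across genes in which both males share most of their reference. Correlations of the deviation with the log2 mean level were -0.03 in replicate 2 and -0.04 in replicate 5 (Pearson). By quartile of mean level, from low to high, medians were 0.39, 0.33, 0.36 and 0.36 in replicate 2 and 0.36, 0.35, 0.34 and 0.32 in replicate 5. Weakly expressed members, at 1.01 to 2.79 CPM, were thus shifted about as much as the strongest ones, at 23.4 to 495 CPM. By quartile of exon length, the shortest members (192 to 1364 bases) had medians of 0.28 and 0.27 in the 2 males, and the longest (3568 to 13880 bases) 0.41 and 0.38. In the other 9 males of groups 2 and 3 the 4 length classes ran from -0.14 to 0.05. Both strands were shifted, with medians of 0.37 (plus) and 0.34 (minus) in replicate 2 and 0.33 on either strand in replicate 5.

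**Figure D2:**
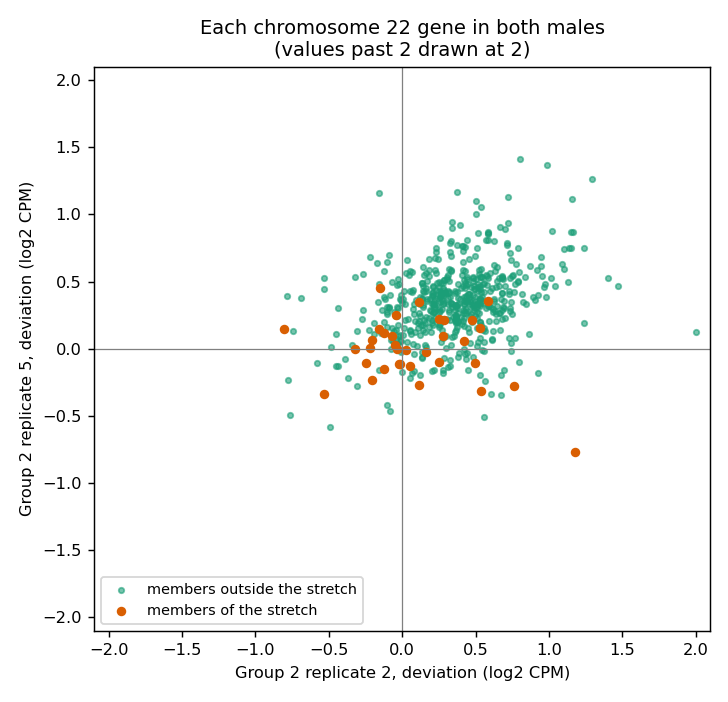
Deviation (log2 CPM) of each of the 586 members in group 2 replicate 2 (horizontal axis) and replicate 5 (vertical axis), with the 34 members of the stretch at 10003921 to 11716152 in orange and values past 2 drawn at 2. The cloud lies mainly in the upper right, where 444 members have both values above 0, and the orange points scatter around 0.

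Along the chromosome, members were counted in windows of 1 Mb numbered from position 1, so that window 3 spans 2000001 to 3000000. Of 35 windows, 28 held at least 8 members and 7 held fewer. Window 23 was the fullest, with 36 members. In replicate 2, 27 of the 28 windows had a median deviation above 0 and 23 were above 0.2. The highest were window 20 (19000001 to 20000000) and window 8 (7000001 to 8000000), both at 0.46, and the lowest were window 17 (16000001 to 17000000) at -0.04 and window 11 (10000001 to 11000000) at 0.04. In replicate 5, 27 windows were above 0 and 25 above 0.2. Its highest were window 8 at 0.55 and window 27 (26000001 to 27000000) at 0.43, and its lowest were window 11 at -0.01 and window 17 at 0.16. The other 9 males of groups 2 and 3 had window medians between -0.31 and 0.22, with no more than 1 window above 0.2 in any male. Windows along most of the chromosome were thus raised in both males, and the same windows, 11 and 17, were the least raised in each. In replicate 5, however, window 17, with 10 members, was little below window 32 (31000001 to 32000000) at 0.17.

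**Figure D3:**
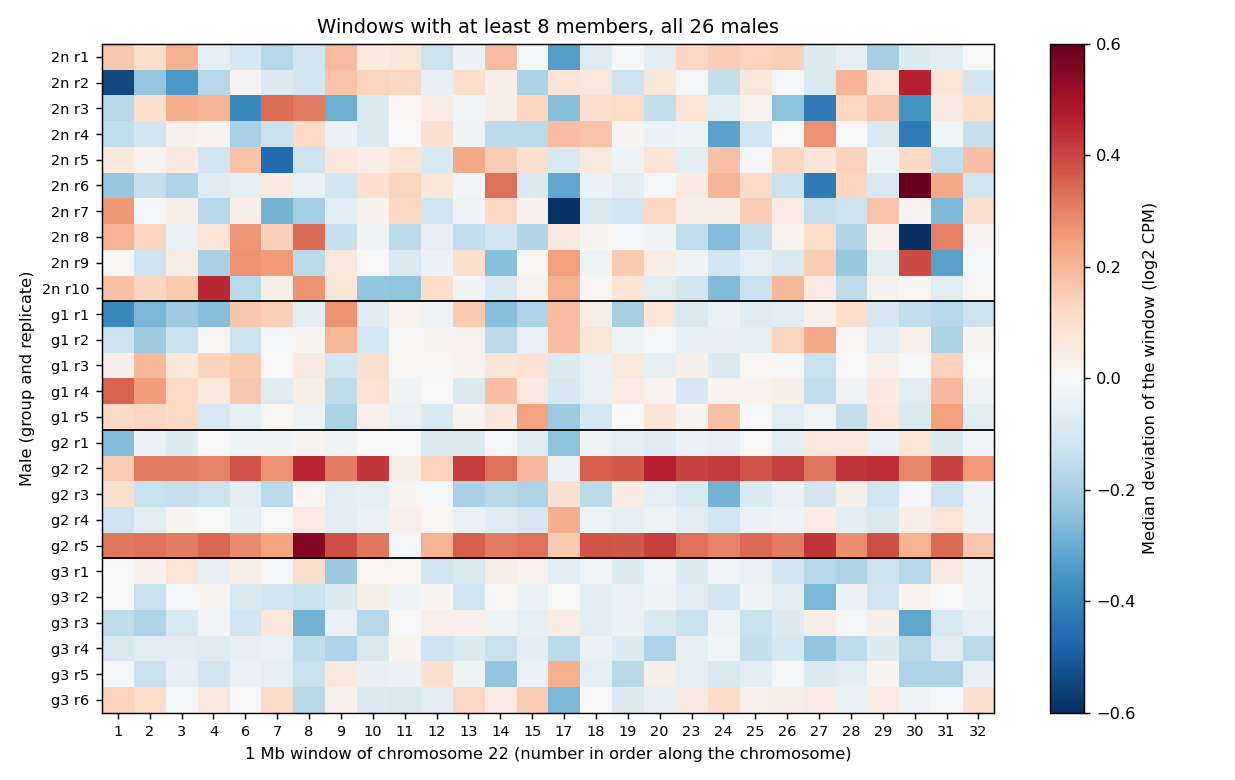
Median deviation (log2 CPM, colour scale from -0.6 to 0.6) of each of the 28 windows with at least 8 members (columns, in order along chromosome 22) in each of 26 males (rows). The rows of group 2 replicates 2 and 5 are red along nearly the whole chromosome, except at window 11 in both and at window 17 in replicate 2. Replicate 5 stands at 0.16 in window 17, and 2n rows hold scattered red and blue windows.

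The 2n males varied more from window to window than the triploid males of groups 2 and 3, without a shift of the whole chromosome. The SD over windows was 0.136 to 0.206 in single 2n males, 0.080 to 0.160 in group 1 and 0.0585 to 0.0973 in the other 9 males of groups 2 and 3. Single windows reached 0.62 in 2n replicate 6 and -0.60 in 2n replicate 8, both at window 30 (29000001 to 30000000), and -0.59 in 2n replicate 7 at window 17. Single 2n males had up to 4 windows above 0.2, against 25 in group 2 replicate 5. The spread of single members was also largest in the 2n group, and it was smallest in group 3, when every male of a group was counted. The median SD of log2 CPM over males was 0.437 for members in the 2n group (0.412 for all other genes), 0.276 in group 1 (0.271) and 0.204 in group 3 (0.193). Group 2 had 0.280 for members against 0.181 for other genes, and 0.176 against 0.165 without replicates 2 and 5. Group 1 without replicates 1 and 2 had 0.154 against 0.138, which is below group 3. Within the 2n males, those of number 14 had 0.353 against 0.363 and those of number 108 had 0.274 against 0.235.

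Window 11 and the larger part of window 12 formed a stretch where the median of neither male was raised. A running median over 11 neighbouring members fell below 0.15 in both males there, a limit and a rule chosen after the values were seen. The stretch held 34 members from 10003921 to 11716152. Its median deviation was 0.01 in replicate 2 (quartiles -0.14 and 0.28) and 0.00 in replicate 5 (quartiles -0.12 and 0.15). Each male was above 0 at 17 of the 34 members, and 5 members (14.7%) were above 0.15 in both, against 355 of the 552 members outside (64.3%). The stretch and its ends were set by these same deviations and this same limit. Its medians, these shares and the contrast with its neighbours therefore largely follow from the rule and test nothing. The other 9 males of groups 2 and 3 had medians of -0.11 to 0.02 in the stretch.

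Members on either side of the stretch were raised. The 20 members before it (9217759 to 9876896) had medians of 0.45 in replicate 2 and 0.28 in replicate 5, and 13 of them were above 0.15 in both males. The 20 members after it (11735190 to 12522088) had 0.42 and 0.43, with 14 above 0.15 in both. The stretch was made of runs of 19, 5 and 7 members below the limit, joined because fewer than 6 members lay between them. Their medians in replicates 2 and 5 were 0.03 and 0.00 for the run of 19, 0.25 and 0.05 for the run of 5 (11167176 to 11262507) and -0.04 and -0.02 for the run of 7, so replicate 2 was above the limit of 0.15 in the middle run. One further run, of 6 members at 16611220 to 17101501, had medians of -0.04 and 0.05, and it lies in windows 17 and 18. With a running median over 7 members the stretch held 35 members, from 9844643 to 11716152, and over 15 members 32, from 9844643 to 11614803. Median level and length in the stretch were 9.97 CPM and 2344.5 bases, against 7.11 CPM and 2254 bases outside.

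**Figure D4:**
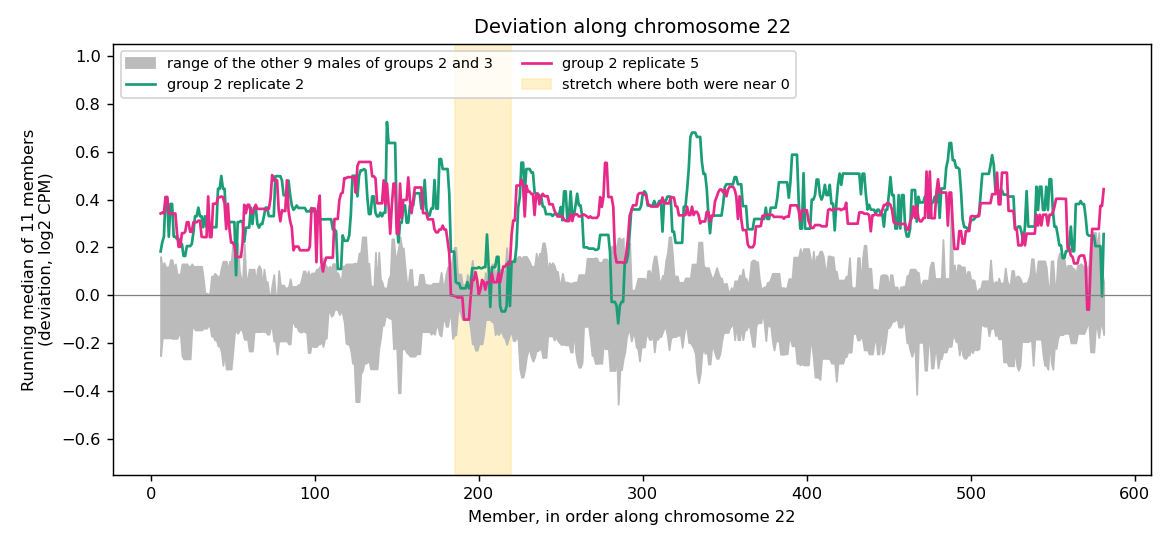
Running median of the deviation over 11 neighbouring members (log2 CPM) in order along chromosome 22, for group 2 replicate 2 (green), replicate 5 (pink) and, in grey, the range of the other 9 males of groups 2 and 3. Both lines drop to about 0 in the shaded stretch of 34 members and lie above the grey range over most of the remaining members.

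Genes of chromosome 22 under the threshold are not among the members, though they come from the same libraries. Whether they entered the earlier choice of the chromosome is not known, so their sums are a description and test nothing. Summed over the 605 genes as CPM scaled by TMM, they gave 154 CPM in replicate 2 and 154 CPM in replicate 5 of group 2, against 120, 124 and 121 CPM in replicates 1, 3 and 4. Group 3 gave 110 to 125 CPM, the 2n males 123 to 167 CPM and group 1 148 to 175 CPM. Since low genes as a whole differed in level between groups, the sum was also set against that of low genes on all other sequences. It was 3.27% of that sum in both males, 2.65% to 2.72% in the other 3 males of group 2, 2.57% to 2.91% in group 3, 2.20% to 2.88% in 2n and 2.28% to 2.69% in group 1. The low genes of chromosome 22 were therefore highest, relative to low genes elsewhere, in the same 2 males.

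The design compares all triploid males with diploid males for genes of reproduction, and each triploid group with the diploid males for genes of sex determination. Of the 586 members, all of which could be tested, 82 were higher and 79 lower in the 16 triploid males (edgeR quasi-likelihood test, adjusted p under 0.05). That is 27.5% of members called, against 25.5% of all 39578 genes tested. Higher and lower shares were 14.0% and 13.5% for members, 10.8% and 14.7% for all genes and 10.7% and 14.9% for genes at mean CPM of at least 1. The median log2 fold change was 0.03 for members and -0.02 for all genes. Without group 2 replicates 2 and 5, 60 members were higher and 87 lower (10.2% and 14.8% of members), against 8.68% and 12.5% of all genes. The median was then -0.03 for members and -0.02 for all genes. With group 1 replicates 1 and 2 left out, 137 of 585 members were higher and 107 lower (23.4% and 18.3%), against 18.2% and 21.9% of all genes. That fit still held the raised males, group 2 replicates 2 and 5, and no fit of this comparison left out both pairs.

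In group 1 against 2n, which holds neither of the raised males, 70 members were higher and 106 lower (11.9% and 18.1% of members). Of all genes, 34.0% were called, 15.8% higher and 18.2% lower, and of genes at mean CPM of at least 1, 13.8% were higher and 19.9% lower. Members had a median log2 fold change of -0.11 (quartiles -0.42 and 0.27), and all genes one of -0.05. Windows 30 (0.40, 2 of 11 members higher and 0 lower) and 8 (0.36, 4 higher and 1 lower of 16) had the highest medians. Windows 31 (30000001 to 31000000; -0.37, 2 of 16 lower) and 2 (1000001 to 2000000; -0.34, 2 of 10 lower) had the lowest. These medians depended on single males and on the 2n subset. Window 30 stood at 0.16 without group 1 replicate 5, 0.26 without replicate 4 and 0.19 with the 2n males of number 14 alone. Window 8 stood at 0.22 with those of number 108 alone. Window 2 stood at -0.11 with number 14 alone, and window 31 at -0.22 with number 14 alone, -0.23 with number 108 alone and -0.24 without 2n replicate 8. Under upper quartile scaling the all-gene median rose from -0.05 to 0.12, and the split went to 119 higher and 60 lower, so no direction is given for chromosome 22 in group 1. When group 1 replicates 1 and 2 were left out, the counts were 50 higher and 49 lower (8.53% and 8.36% of members), against 10.3% and 8.49% of all genes. Windows 30, 8, 2 and 31 then stood at 0.35, 0.39, -0.20 and -0.15.

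In group 2 against 2n, 140 members were higher and 72 lower (23.9% and 12.3% of members). Of all genes, 35.2% were called, 14.1% higher and 21.1% lower, and of genes at mean CPM of at least 1, 15.1% were higher and 20.4% lower. Higher members made up 66.0% of those called, and 40.1% among all genes. The median was 0.08 for members and -0.11 for all genes. This comparison contains the 2 raised males, and the excess of higher members over all genes was smaller without them. With replicates 1, 3 and 4 only, 59 members were higher and 69 lower (10.1% and 11.8% of members), against 8.36% and 11.0% of all genes. Higher members then made up 46.1% of those called, and 43.1% among all genes. The median was -0.08 for members, beside -0.12 for all genes. The highest windows were 3 (0.52, 11 higher and 1 lower of 26) and 2 (0.42, 3 higher and 1 lower of 10). The lowest were 17 (-0.22) and 27 (-0.21). Without the 2 males, windows 2 and 3 stood at 0.26 and 0.34 and window 27 at -0.51. Window 27 was at -0.41 without replicate 2 alone, -0.13 without replicate 1 and -0.09 without replicate 4. Window 17 was at 0.00 with the 2n males of number 14 alone, -0.36 with those of number 108 alone and -0.14 without 2n replicate 9.

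In group 3 against 2n, the pair kept at the same 22 °C, 122 members were higher and 154 lower (20.8% and 26.3% of members). Of all genes, 44.4% were called, 17.7% higher and 26.7% lower, and of genes at mean CPM of at least 1, 19.6% were higher and 25.0% lower. The median was -0.04 for members and -0.10 for all genes. In limma-voom it was 0.02 for members and -0.04 for all genes, with 127 members higher and 126 lower. Members at mean CPM of at least 5 had 0.06, with 85 higher and 75 lower, and all genes were not split at that level. The members' median lay above that of all genes in edgeR and in limma-voom. Its sign changed with the setting, so no direction is given for the members as a whole. Window 3 (0.43, 10 higher and 4 lower of 26) and window 2 (0.30, 4 higher and 1 lower of 10) had the highest medians. Window 29 (28000001 to 29000000; -0.46, 2 higher and 10 lower of 21) and window 27 (-0.44, 5 of 9 lower and 0 higher) had the lowest. Window 29 stood at -0.19 with the 5 2n males of number 14 alone, -0.30 with those of number 108 alone and -0.23 in limma-voom, and window 2 at 0.47 in limma-voom. The comparisons of groups 2 and 3 with 2n share the 10 diploid males, so their like order of windows is not a repeat.

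**Figure D5:**
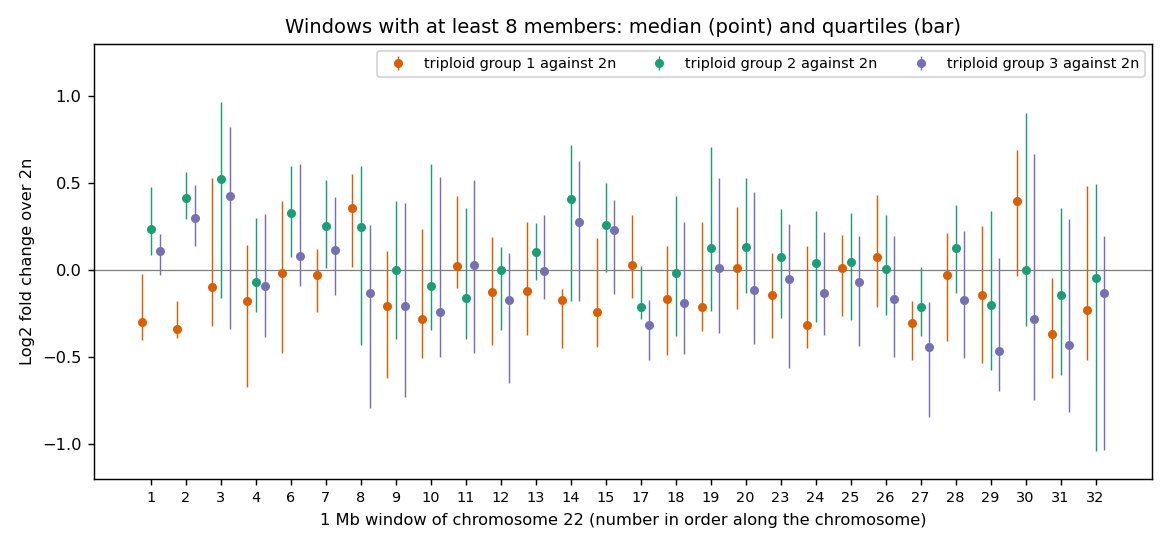
Median log2 fold change over the 2n males (point) and quartiles over members (bar) for each of the 28 windows with at least 8 members, for triploid group 1 (orange), group 2 (green) and group 3 (purple). The green points reach 0.52 at window 3, the orange points 0.40 at window 30, and the purple points fall to -0.46 at window 29.

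Group 1 was compared with the other triploid groups, of which group 2 differs from it in mother and group 3 in mother and temperature. Against group 2, in the same labelled range of 28 to 31 °C, 86 members were higher and 196 lower in group 1 (14.7% and 33.4% of members). Of all genes, 47.9% were called, 25.8% higher and 22.2% lower, and of genes at mean CPM of at least 1, 23.5% were higher and 25.2% lower. Members had a median log2 fold change of -0.15, and all genes one of 0.10. Without the 2 raised males, 90 were higher and 113 lower (15.4% and 19.3% of members), against 18.5% and 17.4% of all genes. The median was then 0.00 for members and 0.12 for all genes. The lowest windows were 2 (-0.61, 7 of 10 lower) and 14 (13000001 to 14000000; -0.56, 8 of 11 lower), and the highest were 8 (0.24) and 26 (25000001 to 26000000; 0.20). Without the 2 raised males, windows 8 and 26 stood at 0.44 and 0.50. Window 8 was at 0.14 without group 2 replicate 1, and window 26 at 0.12 without group 1 replicate 1. Without group 1 replicates 1 and 2, 45 members were higher and 119 lower (7.68% and 20.3% of members), against 15.3% and 12.1% of all genes. The 2 raised males of group 2 remained in that fit, and no fit of this comparison left out both pairs. Windows 2, 14, 8 and 26 then stood at -0.39, -0.49, 0.27 and 0.08.

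Against group 3, 146 members were higher and 171 lower in group 1 (24.9% and 29.2% of members). Of all genes, 56.5% were called, 30.7% higher and 25.8% lower, and of genes at mean CPM of at least 1, 27.4% were higher and 29.6% lower. Members had a median log2 fold change of -0.02, and all genes one of 0.09. The members' median turned to 0.02 without group 1 replicate 3 or 4 and to 0.05 without replicate 5. The all-gene median rose as well, to 0.14, 0.14 and 0.15, and stayed above that of the members. For members at mean CPM of at least 5 the median was -0.25, with 57 higher and 134 lower. No such split was made for all genes at that level. The lowest windows were 3 (-0.64, 11 of 26 lower) and 2 (-0.55, 5 of 10 lower), and the highest were 8 (0.58, 8 of 16 higher) and 17 (0.33, 3 of 10 higher). Under upper quartile scaling the all-gene median was 0.30 against group 2 and 0.33 against group 3, and the splits became 128 higher with 151 lower and 209 higher with 112 lower. Windows 2 and 3 remained negative under that scaling against group 3, at -0.36 and -0.42. Without group 1 replicates 1 and 2, 96 members were higher and 105 lower against group 3 (16.4% and 17.9% of members), against 21.0% and 16.5% of all genes. Windows 3, 2, 8 and 17 then stood at -0.32, -0.41, 0.55 and 0.25.

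Group 2 was warm-reared and group 3 was kept at 22 °C, both with mothers of 1 description. Between them, edgeR called 0 of 586 members and 0.0% of all 42352 genes, with 28 members (4.78%) at an unadjusted p under 0.05, against 2.54% of all genes. Leaving out single males moved the 28 to between 5 (without group 2 replicate 2) and 41, with 12 without group 2 replicate 5 and 15 and 17 without group 3 replicates 3 and 4. With only the 2 groups in the fit it was 113 of 576 members (19.6%), against 11.4% of all genes. DESeq2 and limma-voom also called 0 members. The chromosome was chosen by earlier values of this comparison, so its p-value counts and medians describe that choice and test nothing. The median log2 fold change was 0.14 for members and 0.01 for all genes. It was above 0 for 476 of 586 members and in 28 of 28 windows, from 0.06 in windows 4 (3000001 to 4000000) and 11 to 0.27 in window 8 and 0.31 in window 30. Without replicates 2 and 5 of group 2 the median was -0.02 and 267 members were above 0, with 3 (0.512%) at an unadjusted p under 0.05, against 0.974% of all genes. Windows 4, 8 and 30 then stood at -0.08, 0.06 and 0.10, and window 4 was at -0.01 without replicate 2 alone. The shift of the members' median was thus not seen in the 3 remaining males.

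The 2n males are divided in their library names into number 14 (5 males), number 108 (4 males) and number 106 (1 male). Between numbers 14 and 108, 60 members were higher and 41 lower in number 14 (10.2% and 7.00% of members). Of all genes, 14.9% were called, 7.44% higher and 7.48% lower, and of genes at mean CPM of at least 1, 8.09% were higher and 6.47% lower. Members had a median log2 fold change of 0.04, and all genes one of 0.01. Window 30 had the highest median, 1.10, with 3 of 11 members higher and 2 lower, followed by window 14 at 0.36. The lowest were window 8 (-0.35) and window 19 (18000001 to 19000000) at -0.26. Among the windows with at least 8 members, window 30 also varied most within the 2n males, and it stood at 0.61 without 2n replicate 6 and at 0.73 without 2n replicate 8. Window 19 stood at -0.16 without 2n replicate 5. Upper quartile scaling moved the split to 46 higher and 53 lower, with an all-gene median of -0.08.

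Members called the same way in all 4 comparisons with 2n, at a mean CPM of at least 2, numbered 13 higher and 22 lower (2.64% and 4.46% of the members at that level), against 2.14% and 4.4% of all genes at that level, and those with the 2 highest and 2 lowest log2 fold changes are named. The files give these genes no name, and none is assigned here. Their CPM below are counts over the library total, without TMM.

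ENSCARG00000004088 (2911107 to 2948313, plus strand, window 3) rose in triploid males. Its CPM in the 2n males ran from 0.614 to 2.08 with a median of 1.33. Group 1 had 6.68, 4.60, 4.98, 4.91 and 4.48 CPM, group 2 had 3.90, 7.51, 3.23, 4.05 and 5.05 CPM, and group 3 had 5.53, 4.69, 2.246, 2.74, 2.81 and 3.54 CPM. Every triploid male lay above every 2n male. The log2 fold change of all triploid males over 2n was 1.77 ± 0.21 (SE; edgeR adjusted p = 1.2e-06). ENSCARG00000058615 (2436898 to 2451449, plus strand, window 3) had 0.756 to 3.32 CPM in 2n males with a median of 1.53. Group 1 had 3.87, 3.12, 3.19, 3.61 and 3.14 CPM, and groups 2 and 3 had 4.39 to 6.69 and 4.02 to 6.24 CPM. The highest 2n male, replicate 3, overlapped group 1, and groups 2 and 3 lay above all 2n and all group 1 males. Its log2 fold change was 1.65 ± 0.23 (SE; edgeR adjusted p = 9.8e-06), with 0.80 ± 0.22 in group 1, 1.95 ± 0.21 in group 2 and 1.94 ± 0.20 in group 3. Without group 1 replicates 1 and 2, ENSCARG00000004088 stood at 1.75 ± 0.30 and ENSCARG00000058615 at 0.96 ± 0.26 in group 1 against 2n (SE).

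ENSCARG00000005974 (22956365 to 22957766, plus strand, window 23) fell in triploid males. It ran from 6.40 to 34.3 CPM in the 2n males, with a median of 13.5. Group 1 had 0.255, 0.296, 6.63, 5.72 and 13.6 CPM, the first pair being the replicates that stand apart in scaling. Group 2 had 13 counts over 5 males (0 to 0.187 CPM, 1 male at 0) and group 3 had 8 counts over 6 males (0 to 0.161 CPM, 2 males at 0). Groups 2 and 3 lay below every 2n male, while replicates 3 and 5 of group 1 lay within the 2n range. Over 2n, triploid males changed by -3.08 ± 0.70 on the log2 scale (SE; adjusted p = 0.0018 by edgeR), and by -2.82 (adjusted p = 0.00082) without group 1 replicates 1 and 2. Group 1 alone against 2n, without that pair, stood at -0.81 ± 0.37 (SE) and did not pass the threshold (edgeR adjusted p = 0.12). For all triploid males against 2n, limma-voom gave -5.61 (adjusted p = 2.7e-06). All triploid males against the 4 2n males of number 108 alone gave -2.57, which did not pass the threshold (edgeR adjusted p = 0.060).

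ENSCARG00000029540 (18171611 to 18187268, minus strand, window 19) fell in every triploid group. The 2n males ran from 25.6 to 46.2 CPM with a median of 38.3. Those of number 108 had 25.6, 27.9, 28.6 and 26.6 CPM and those of number 14 had 35.0, 44.1, 44.2, 44.6 and 41.6 CPM, which do not overlap (log2 difference 0.73 ± 0.12 SE, edgeR adjusted p = 0.0047). Group 1 had 5.61, 3.00, 4.67, 5.64 and 3.65 CPM, group 2 had 2.58 to 6.74 CPM and group 3 had 2.84 to 5.34 CPM. All triploid males were therefore far below all 2n males, with a log2 fold change of -3.00 ± 0.16 (SE; edgeR adjusted p = 8.0e-14). Group 1 without replicates 1 and 2 stood at -2.97 ± 0.28 against 2n (SE). Replicate 2 of group 2 had the highest value of the triploid males at this gene and at ENSCARG00000004088, at 6.74 and 7.51 CPM.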

How the data were processed

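Testis RNA of 26 males was measured by strand-specific poly(A) RNA sequencing, 1 library per male. The authors deposited raw counts per gene, made, per the file headers, with featureCounts 2.0.6 on exons of the goldfish annotation ASM336829v1-104, in reverse-stranded mode (setting 2), without a minimum mapping quality (0), from proper pairs of 1 to 25000 bp. The submitters' processing notes also name cutadapt 4.3, STAR 2.7.3a, Picard 2.25.6, MultiQC 1.10.1, FastQC and Subread 2.0. Gibel carp reads were thus counted on a related species, the chromosome numbers are those of the goldfish reference, and reads of near-identical duplicate genes may have been lost or divided. The use of molecular identifiers in counting is not given in the sources used. The table's exon lengths, per the file headers, only describe genes. All 26 value columns were mapped to samples, 0 were left over, and 0 rows named no gene.

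Groups came from the sample labels. Tests were edgeR 4.0.16 quasi-likelihood tests (R 4.3.3, limma 3.58.1) on the whole table of counts, with TMM, filterByExpr (minimum count 10), robust estimation and Benjamini-Hochberg adjustment at 0.05. All triploid males against 2n used a 2-group model (39578 genes), the other group comparisons a 4-group model (42352 genes) and the 2n numbers a model of the 10 2n males (44558 genes). Deviations per male used log2 CPM with TMM and a prior count of 2. Both procedures were run on simulated counts of independent males with chromosome 22 raised in a single male. These data hold related males and 2 raised males, so that run does not cover their setting. Named genes are members called in the same direction in all 4 comparisons with 2n at mean CPM of at least 2, the 2 highest and 2 lowest. Named windows are the 2 highest and 2 lowest among those with at least 8 members, and other windows or males singled out were chosen after their values were seen. The members, windows and tests were chosen with earlier results of these data known. Alternatives were upper quartile scaling, DESeq2 1.42.0, limma-voom, other filters and thresholds, a replicate block, subsets of the samples and each male left out in turn. Depth of 15375923 to 29503544 counts limits precision for members near 1 CPM. No sequence is shown, as the tables at hand hold none for these gene IDs.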

Additional observations from a re-analysis of the deposited data

Results flagged for a closer look

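Of 28 sets of values checked for a single male far from its group, 4 held one. The cutoff flags about 1 in 20 independent sets of normal values. Many of these sets were unlogged CPM of the named genes and others shared members, so the 4 are not set against chance. The chromosome 47 median of 2n replicate 7 was 0.18, and that of group 3 replicate 2 was -0.49. The CPM of ENSCARG00000004088, without TMM, was 6.68 in group 1 replicate 1, above the other 4 males of group 1. That library had a TMM factor of 1.52, against 1.06, 1.07 and 1.04 in replicates 3, 4 and 5. The checks of CPM were not repeated with TMM, so this flag is given for unscaled CPM only. The CPM of ENSCARG00000029540 was 5.34 in group 3 replicate 5, above the other 5 males of group 3. The chromosome 22 medians held no such male in any group, since group 2 has 2 raised males close to each other.

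The effects against 2n differed between triploid groups at 2 named genes, tested as the contrast of the groups in the 4-group edgeR model. ENSCARG00000058615 was lower in group 1 than in group 2 by a log2 difference of -1.16 (adjusted p = 0.00054) and than in group 3 by -1.14 (adjusted p = 0.00028), with all 5 group 1 males below all males of groups 2 and 3. ENSCARG00000005974 was higher in group 1 than in group 2 by 5.21 (adjusted p = 7.4e-05) and than in group 3 by 6.15 (adjusted p = 7.0e-06). In CPM without TMM, all 5 group 1 males lay above all males of groups 2 and 3. Replicates 1 and 2 of group 1 were near the floor, at 0.255 and 0.296 CPM, against up to 0.187 CPM in group 2. Their TMM factors were 1.52 and 1.45, against 0.861 to 0.910 in group 2, so no order is given for them after scaling. Without group 1 replicates 1 and 2 the differences were -0.996 and -0.980 for ENSCARG00000058615 (adjusted p = 0.0076 and 0.0049) and 5.94 and 6.89 for ENSCARG00000005974 (adjusted p = 7.8e-08 and 5.7e-09), against groups 2 and 3 in that order.

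Chromosome 22 genes under the threshold, as a percent of the summed CPM of such genes elsewhere, exceeded the highest 2n male (2.88%) in 3 triploid males. These were group 2 replicates 2 and 5, for whose values the chromosome was chosen, both at 3.27%, and group 3 replicate 1 at 2.91%.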

How the results depend on the processing

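Of 78 alternative counts of members called, other than leaving out single males, 58 stayed within 1.5 times the reported count. The 58 include every such setting of group 2 against group 3, where 0 members were called each time. In that comparison a stricter threshold or fewer members could not change the count. In the order all triploid, group 1, group 2 and group 3 against 2n, the counts at adjusted p under 0.01 were 90, 96, 138 and 161, and for members at mean CPM of at least 5 they were 86, 106, 130 and 160. Group 1 against group 2 gave 186 and 176 under those settings, 2n number 14 against 108 gave 23 and 55, and group 1 against group 3 gave 191 at the higher CPM. With only the 2 groups compared in the fit, group 1 against 2n gave 102. Without group 1 replicates 1 and 2 the counts were 244 (all triploid), 99 (group 1 against 2n), 164 (against group 2) and 201 (against group 3). Without group 2 replicates 2 and 5, group 2 against 2n gave 128. These are counts of members alone, and the count over all genes changes with the setting too. For all triploid against 2n it went from 10089 of 39578 to 15539 of 38770 without group 1 replicates 1 and 2. A moved count is therefore not a result about chromosome 22. Causes were not tested, except that a stricter threshold or fewer members make a count lower by construction. The members' median log2 fold change moved by more than the spread between males in 20 of 78 such alternatives and in 6 of 113 with 1 male left out. These medians are not centred on the all-gene median, which moved as well in some of the runs. The 78 include the runs at adjusted p under 0.01, which use the main fit, so their medians could not move.

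Leaving out each male gave 143 to 200 members (all triploid), 127 to 197 (group 1 against 2n), 184 to 221 (group 2), 225 to 280 (group 3), 240 to 289 (group 1 against 2), 271 to 323 (group 1 against 3), 0 to 0 (group 2 against 3) and 49 to 136 (2n number 14 against 108). In the last, the counts were 49, 63 and 55 without 2n replicates 4, 8 and 10. All of these are counts of members alone, given without the share over all genes. The male medians ran from 0.33 to 0.38 (replicate 2) and 0.31 to 0.36 (replicate 5). Against the other group 2 males alone these were 0.31 and 0.28, against group 3 alone 0.37 and 0.37, and replicate 2 gave 0.39 for members at mean CPM of at least 8.

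Replicate numbers did not pair the males: deviations from the group mean correlated by more than 0.1 in 4 of the 31 pairs with a number in common. With the replicate number as a block, all triploid against 2n gave 99 members, and every other comparison with a block stayed within 1.5 times its count. The share over all genes is not set beside these counts either.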
